A study of Mus musculus with 28 samples.

Results

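Whole pituitary glands of 3 male mice after paradoxical sleep deprivation (PSD) were compared with those of 4 male mice left in their home cages, 7 of the 28 mice of the series, chosen by their labelled sex and treatment alone. All were C57BL/6J wild-type males, aged 8 weeks on arrival by the study's methods, and none of the 7 was restrained. PSD lasted 12 h and was done on small columns above water, where the loss of muscle tone that comes with REM sleep wakes the animal. Every mouse, control mice included, had been accustomed to the columns on the days before. The glands were taken 18 h after the end of PSD, so the values describe the gland at that later time and not the hours of sleep loss themselves. PSD on columns also brings wet surroundings and confinement, which the design does not separate from sleep loss. Neither the labels nor the study's methods say which mice shared a tank or a cage, so the spread within a group may include or miss such effects.

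The anterior lobe of the pituitary secretes growth hormone, prolactin, ACTH and the other hormones that govern growth, reproduction, metabolism and the stress response. Under stress, CRF from the hypothalamus makes corticotropes release ACTH, which is cut from the precursor encoded by Pomc, and ACTH in turn drives the adrenal gland to secrete corticosterone. The intermediate lobe also expresses Pomc at a high level, and vessels, fibroblasts, macrophages and folliculostellate cells lie among the endocrine cells. RNA of the whole gland therefore sums over all of these, and fewer cells of a type cannot be told apart from less RNA per cell.

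Counts per mouse lay between 28602558 and 52948531. Gh, Prl and Pomc, the defining products of somatotropes, lactotropes and corticotropes, together took 25.5% to 30.8% of them in each of the 7 mice. A control library stood apart. The 14 genes listed as markers of the neurointermediate lobe (the intermediate and posterior lobes) summed to 451 in control 1 (CPM, counts scaled to a common library size with TMM factors), whereas the other controls reached up to 2037 CPM and the PSD mice spanned 2059 to 2897 CPM. Genes of forebrain neurons and glia summed to 276 CPM in this mouse and to 123 to 141 CPM in the other controls. Counts of gene list members are given without control 1, or another mouse, for many of the lists where that moved them by more than 1.5 times. Some other small counts moved that far too and are given for all mice only.

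The first question was which genes differed between the groups. Of 18271 genes tested with edgeR's quasi-likelihood test, 1 gene (0.00547%) passed an adjusted p of at most 0.05 and differed by at least 0.32 on the log2 scale. This gene was Aldh1l2, which encodes a mitochondrial enzyme of folate metabolism, and it rose. An unadjusted p under 0.05 was met by 825 genes that were higher after PSD (4.52%) and by 793 that were lower (4.34%). The median log2 fold change over all genes tested was -0.00106, and 49.8% of the fold changes were positive. DESeq2, the study's tool, called 76 genes, 37 higher (0.235% of 15722) and 39 lower (0.248%). That run also differed in the genes entered, in the shrunken fold changes it was thresholded on and in having 1 mean per treatment, and edgeR itself called 11 genes without the filter on low counts. In the same comparison all 3 PSD mice lay above all 4 controls for 938 genes (5.13%) and below them for 947 (5.18%). Counts of gene list members in these males are to be read against these shares of all genes.

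Other mice of the series measured the same treatment and shared no animal with these 7. Among males restrained for 20 min shortly before the glands were taken, 3 with PSD were compared with 2 without, and among unrestrained females of the same strain and age 4 PSD mice were compared with 4 home cage controls. Of the 37 genes that DESeq2 called higher in males, 36 had a positive fold change in the restrained males and 33 in the females. Of the 39 called lower, 36 had a negative fold change in the restrained males and 16 in the females. Over all genes tested, 50.2% of fold changes were positive in the restrained males and 51.4% in the females. In the females all 13 forebrain genes had positive fold changes with PSD (median 1.59, 9 of them at an unadjusted p under 0.05), as had all 14 neurointermediate lobe genes, and the part of this in the other female values was not tested.

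Aldh1l2 (chromosome 10, 83487450 to 83534140 on GRCm38) was counted at 12.1, 12.3, 14.3 and 15.9 CPM in the 4 controls and at 23.7, 27.7 and 26.9 CPM in the 3 PSD mice. Each PSD mouse lay well above the highest control, and the groups did not overlap. The means were 13.6 ± 1.81 (SD, n = 4) and 26.1 ± 2.09 (SD, n = 3) CPM, which differed by 0.94 on the log2 scale (standard error, SE, 0.11, adjusted p = 0.0294 by edgeR). Over the other settings tried the difference stayed between 0.77 and 1.03 on the log2 scale while the adjusted p ran from 3.87e-10 to 0.285. It was above 0.05 when control 2, control 3 or any 1 of the PSD mice was left out, and in a fit of the 7 mice alone. Restrained males had 11.6 and 13.8 CPM without PSD and 26.6, 32.6 and 32.9 CPM with it, a log2 fold change of 1.27 (adjusted p = 0.0146). Aldh1l2 was also the 1 gene of 18271 (0.00547%) called in that comparison. In females the controls had 6.18, 8.79, 5.43 and 12.7 CPM and the PSD mice 10.7, 16.9, 15.6 and 9.47 CPM, with a log2 fold change of 0.66 (SE 0.22).

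Aldh1l2 belongs to a set of genes that ATF4, a transcription factor of the integrated stress response, is known to switch on when amino acids are short or mitochondria are impaired. They include the enzymes that make serine, those that pass its carbon to folate in mitochondria, amino acid transporters and aminoacyl-tRNA synthetases. All 40 members of a list of such genes were measured, and 38 had a positive fold change. At an unadjusted p under 0.05, 24 were higher, against 4.52% of all genes, and 0 lower, and for 20 of the 40 the PSD mice lay above all controls, against 5.13%. The median log2 fold change of the list was 0.28. Without control 1 the count of higher members stayed at 24, and without PSD mouse 3 it was 17. In the restrained males 32 of the 40 fold changes were positive and 12 members were higher at an unadjusted p under 0.05, where 5.14% of all genes were. In females 22 were positive and 10 were higher at that threshold, against 11.5% of all genes.

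The promoters of these genes were searched for the ATF4 element TGATGNAA on both strands, from 250 bases before to 50 after the RefSeq transcription start (GRCm38.p6). Promoter entries matched 32 of the 40 symbols, and 13 of them held the element, as did 4.51% of all symbols with a promoter. The list was made of genes already known as ATF4 targets, so this share describes the list and not PSD. Aldh1l2 was among the unmatched. The element was present in 7 of the 19 matched members that were higher at an unadjusted p under 0.05 and in 6 of the other 13. Windows of 52 bases are shown for 3 members whose element lies upstream of the start and outside every annotated exon, with the element in capitals. They are read 5′ to 3′ along the strand of the gene, where the element appears as its reverse complement, starting 110 (Atf3), 193 (Chac1) and 103 (Pck2) bases before the start.
Atf3 (chr1:191183414-191183465, minus strand): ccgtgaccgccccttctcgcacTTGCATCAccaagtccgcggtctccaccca
Chac1 (chr2:119351027-119351078, plus strand): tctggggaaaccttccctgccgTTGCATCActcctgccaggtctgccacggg
Pck2 (chr14:55540141-55540192, plus strand): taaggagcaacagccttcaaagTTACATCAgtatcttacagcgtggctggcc

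Serine synthesis runs through Phgdh, Psat1 and Psph. Psat1, which makes phosphoserine, had 23.02, 23.5, 19.1 and 24.5 CPM in the controls and 30.03, 34.3 and 33.3 CPM in the PSD mice, a log2 fold change of 0.53 (SE 0.11), and DESeq2 called it. The fold change was 0.59 in restrained males (SE 0.13) and 0.71 in females (SE 0.19). Phgdh, the first enzyme, had 14.4 to 18.9 CPM in controls and 19.1 to 23.1 CPM after PSD, with the groups apart. Its log2 fold change was 0.35 (SE 0.11), beside 0.67 in restrained males (SE 0.14) and 0.48 in females (SE 0.14). Psph, the last step, overlapped between the groups, at 10.5 to 15.5 against 14.9 to 15.98 CPM.

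In the mitochondrial folate pathway, Mthfd2 turns methylene-tetrahydrofolate into formyl-tetrahydrofolate and Mthfd1l releases formate from it. Mthfd2 (chromosome 6, 83305691 to 83325908) was counted at 30.7, 31.1, 29.4 and 37.5 CPM in controls and 42.6, 46.5 and 52.8 CPM after PSD, a log2 fold change of 0.55 (SE 0.091, adjusted p = 0.0896). The groups did not overlap, edgeR did not call it and DESeq2 did. Restrained males gave 0.33 (SE 0.11), and females gave 0.080 (SE 0.13), a difference between the sexes with an adjusted p of 0.390. Mthfd1l had 5.07, 8.87, 7.47 and 7.55 CPM in controls and 10.4, 12.6 and 12.4 CPM after PSD (log2 fold change 0.72), and was higher in females too (0.57, SE 0.13). Shmt2, which starts the pathway by splitting serine, had overlapping groups and a log2 fold change of 0.18.

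The widest fold among the transporters was that of Slc7a3, which carries arginine and lysine. It had 1.23, 3.45, 1.49 and 3.84 CPM in the controls and 7.95, 8.92 and 8.14 CPM in the PSD mice, so that every PSD mouse stood well clear of the highest control. The log2 fold change was 1.73 (SE 0.34) here, 2.16 in restrained males (SE 0.44) and 1.09 in females (SE 0.43), and DESeq2 called the gene in males. Of the tRNA synthetase genes, Sars, Yars and Mars were higher by 0.13 (SE 0.061), 0.20 (SE 0.065) and 0.27 (SE 0.079). Aars, Gars, Nars and Tars had log2 fold changes of 0.17, 0.14, 0.093 and 0.033, and Wars had -0.10. Restrained males gave 0.089 for Sars, -0.050 for Yars and 0.090 for Mars. In females every synthetase listed had a negative fold change, with -0.033 for Sars, -0.17 for Yars and -0.17 for Mars. Slc7a5, a carrier of large neutral amino acids, had 12.9 to 18.2 CPM in controls and 19.4 to 26.8 CPM after PSD. Its log2 fold changes were 0.46 in these males and -0.28 in females (SE 0.24).

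Among the other targets, Eif4ebp1, a repressor of translation, had 7.25 to 10.5 CPM in controls and 11.04 to 14.3 CPM after PSD (log2 fold change 0.64). Pck2, the mitochondrial PEP carboxykinase, had 44.3 to 56.3 CPM in controls and 60.8 to 80.8 CPM after PSD (0.45). Both were called by DESeq2 alone. Trib3, a pseudokinase that dampens this response, was measured at 4.85, 9.66, 4.88 and 11.4 CPM in controls and at 14.9, 15.9 and 19.2 CPM in PSD mice (1.11, SE 0.30). Atf3 was highest in PSD mouse 3, at 4.62 CPM, with 0.692 to 1.42 CPM in controls. Asns, which makes asparagine and carries the same element, was higher by 0.26 on the log2 scale (SE 0.10), and Nupr1 by 0.38 (SE 0.12). Chaperones of the endoplasmic reticulum, which answer to other sensors of protein misfolding, gave a different count. Of the 20 listed, 1 was higher at an unadjusted p under 0.05 and 0 were lower. Without control 2, 0 were higher and 2 lower, and without control 4, 2 were higher and 0 lower. Hspa5, the main one, had 947 to 1028 CPM in controls and 985 to 1025 CPM after PSD.

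**Figure D1:**
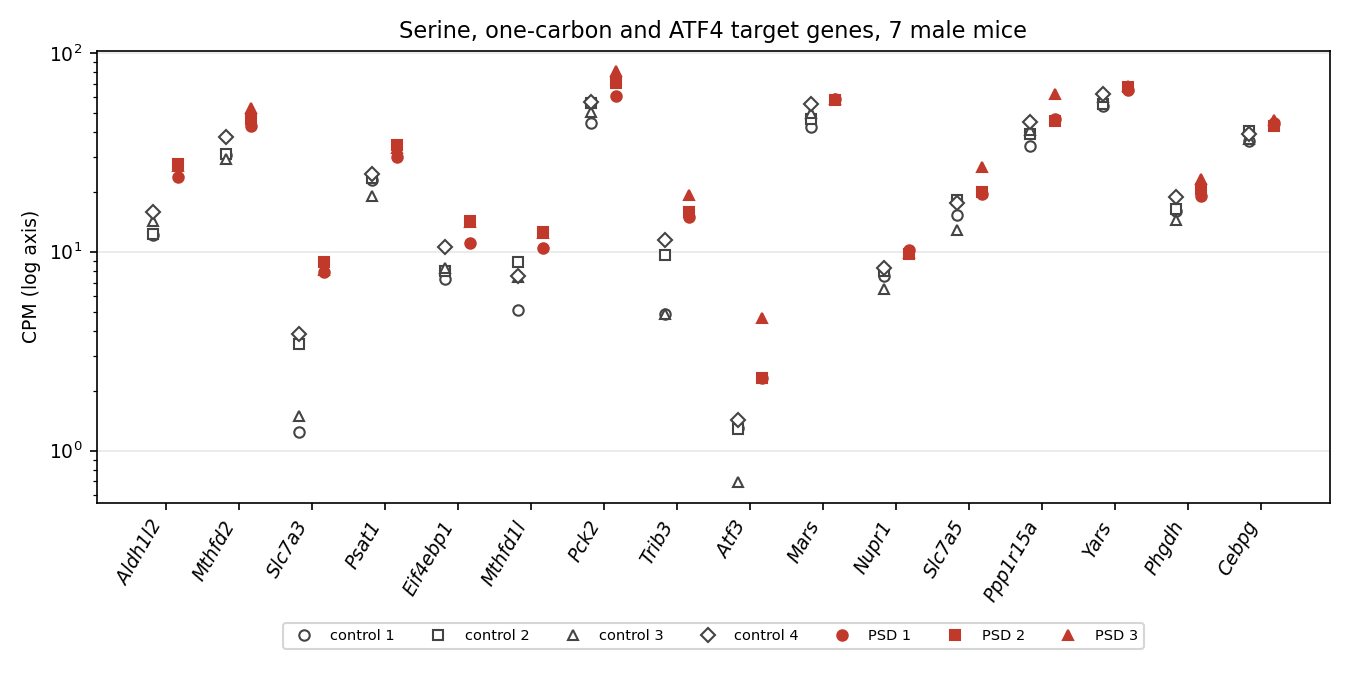
CPM per mouse (log axis) of the 16 serine, one-carbon and ATF4 target genes with the smallest p. Open symbols are the 4 controls and filled symbols the 3 PSD mice, numbered by marker shape, and for each of these genes every PSD mouse lies above every control.

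Immediate early genes are transcribed within minutes of a stimulus such as CRF, a growth factor or depolarization, and most code for transcription factors or for enzymes that end the signal. All 45 of a list of such genes were tested. At an unadjusted p under 0.05, 26 were higher after PSD, against 4.52% of all genes, and 2 lower. For 14 the PSD mice lay above all controls, against 5.13% of all genes, and the median log2 fold change was 0.73. PSD mouse 3 had the highest counts of many of them, and without it 18 members were higher and the median was 0.46. Control 1 was the highest control for several members, among them Nr4a1, Sik1, Nr4a2, Fosl2 and Per1, and without it 25 were higher with a median of 0.63. The summed level of the list was 936 to 1254 CPM in the controls and 1416 to 2812 CPM in the PSD mice. In restrained males 34 of the 45 fold changes were positive, with a median of 0.16. There 10 members were higher at an unadjusted p under 0.05, where 5.14% of all genes were. In females 28 were positive, with a median of 0.14, and 8 were higher at that threshold, against 11.5% of all genes.

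Nr4a1 (chromosome 15, 101254269 to 101274795), an orphan nuclear receptor that CRF induces in corticotropes, had 49.98, 22.4, 21.6 and 13.8 CPM in the 4 controls and 177, 86.4 and 482 CPM in the 3 PSD mice. The PSD mice all lay above the controls but differed widely from each other, and control 1 was the highest of the controls. The log2 fold change was 3.20 (SE 0.50, adjusted p = 0.0736), and 2.28 without PSD mouse 3. Restrained males were already at 765 and 861 CPM without PSD and at 816, 1073 and 837 CPM with it (log2 fold change 0.16, SE 0.57). The difference between these fold changes did not pass an adjusted p of 0.05. Females had 22.2, 63.7, 76.5 and 66.2 CPM in home cages and 35.1, 92.7, 58.7 and 53.2 CPM after PSD, a log2 fold change of 0.071. The test of the sex difference gave adjusted p = 0.159 by edgeR.

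Egr1, a zinc finger factor of the same kind of response, had 25.6, 18.4, 7.18 and 7.502 CPM in controls and 38.0, 50.4 and 217 CPM after PSD, with PSD mouse 3 far above the other PSD mice. The log2 fold change was 2.78 (SE 0.56) with that mouse and 1.58 without it. In restrained males the fold change of PSD was -1.14 (SE 0.62) and in females 1.03 (SE 0.64). Its relative Egr3 showed another order of mice, with 1.73, 2.99 and 1.47 CPM in PSD mice 1, 2 and 3 and 0.541 to 0.998 CPM in controls. Fos itself was highest in PSD mouse 2, at 92.9 CPM, and overlapped between the groups, with 16.6 CPM in PSD mouse 1 and 27.7 CPM in control 2. Nr4a2, at 52.2, 23.2 and 142 CPM after PSD and 31.6, 14.1, 12.7 and 13.9 CPM in controls, and Sik1, a kinase that limits CREB signalling, at 30.8, 22.04 and 96.1 against 23.5, 10.2, 10.5 and 9.46 CPM, had the order of mice seen for Nr4a1. For both, PSD mouse 2 lay below control 1.

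For Gadd45b, Fam212b and Fam46a, PSD mouse 3 did not stand far above the other PSD mice. Gadd45b (chromosome 10, 80930073 to 80932204), a stress-induced gene linked to DNA demethylation and repair, was measured at 7.23, 13.3, 12.5 and 12.2 CPM in controls and 22.6, 23.9 and 29.4 CPM in PSD mice. The groups were well apart, with control 1 the lowest mouse, and the log2 fold change was 1.17 (SE 0.18, adjusted p = 0.0736), with 0.67 in restrained males (SE 0.21) and 0.80 in females (SE 0.21). Fam212b had 19.6, 21.5, 20.8 and 20.4 CPM in controls and 27.1, 26.1 and 28.8 CPM in PSD mice. Its log2 fold change of 0.41 compares with 0.71 in restrained males (SE 0.10) and 0.55 in females (SE 0.15). Fam46a, a poly(A) polymerase gene, had 99.5, 101, 86.7 and 77.7 CPM in controls and 169, 127 and 169 CPM after PSD (log2 fold change 0.76), but -0.25 in females, with an adjusted p of 0.159 for the sex difference. Npas4, Ier2 and Btg2 also had PSD mice above all controls, with log2 fold changes of 0.93, 1.04 and 0.76. PSD mouse 3 was the highest mouse for each of them. Their log2 fold changes were 0.16, -0.26 and -0.50 in restrained males and 0.50, 0.41 and 0.30 in females. Rgs2 had 79.5, 78.1 and 110 CPM in the PSD mice, with log2 fold changes of 0.46 here, 0.048 in restrained males and -0.0091 in females. DESeq2 called Gadd45b, Fam46a, Fam212b, Egr3 and Rgs2 of this list.

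The cyclic AMP response element TGACGTCA was searched for in the same promoter windows, since CREB acts through it on many of these genes. It is its own reverse complement. It was found in 5 of the 33 members with a promoter entry and in 2.03% of all symbols. Of the 16 matched members that were higher at an unadjusted p under 0.05, 2 held it, as did 3 of the other 17. The windows of those 2 members are shown with the element in capitals, 166 (Btg2) and 150 (Slc25a25) bases before the start and outside annotated exons.
Btg2 (chr1:134079292-134079343, minus strand): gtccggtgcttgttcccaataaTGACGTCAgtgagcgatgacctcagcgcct
Slc25a25 (chr2:32424187-32424238, minus strand): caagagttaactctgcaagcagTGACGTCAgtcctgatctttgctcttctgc
Slc25a25, a mitochondrial ATP-Mg carrier, overlapped between the groups, with 82.8, 58.2 and 109 CPM after PSD and 68.1, 44.4, 50.1 and 48.0 CPM in controls. Btg2, an antiproliferative gene, had 129, 125, 128 and 122 CPM in controls, which were close together, and 147, 194 and 301 CPM in PSD mice.

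**Figure D2:**
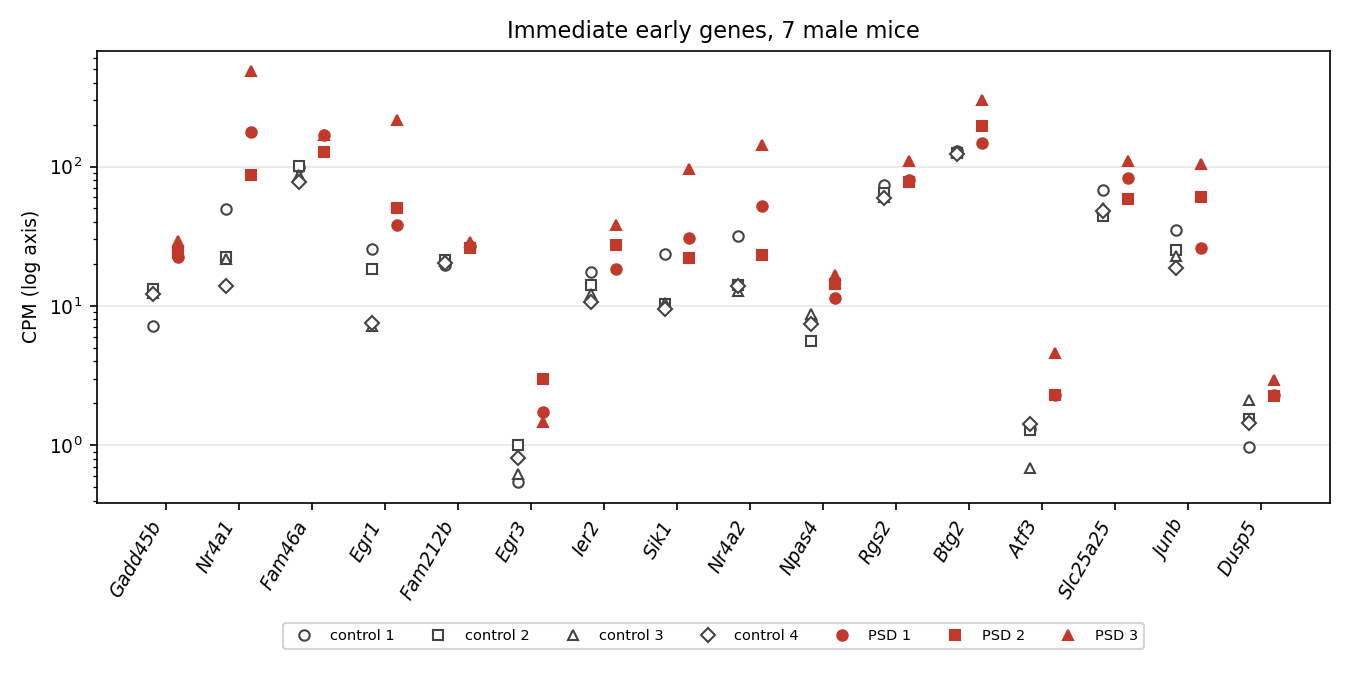
CPM per mouse (log axis) of the 16 immediate early genes with the smallest p, with open symbols for the 4 controls and filled symbols for the 3 PSD mice. PSD mouse 3 (filled triangle) lies far above the other mice for Nr4a1, Egr1, Sik1 and Nr4a2, and less so for Gadd45b and Fam212b.

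MHC class II molecules present peptides to T cells and mark macrophages, dendritic cells and B cells. Of 11 listed genes, 0 were higher and 5 lower at an unadjusted p under 0.05, against 4.34% of all genes, and the median log2 fold change was -0.52. The 4 best expressed members had PSD mice below all controls, and all 4 were called lower by DESeq2. H2-Ab1 (chromosome 17, 34257689 to 34269419), a class II beta chain, had 39.0, 33.6, 39.0 and 35.9 CPM in controls and 21.7, 22.9 and 27.8 CPM after PSD, a log2 fold change of -0.61 (SE 0.13, adjusted p = 0.181 by edgeR). H2-Aa had 64.4, 49.9, 53.0 and 50.3 CPM in controls and 31.0, 35.7 and 41.2 CPM after PSD (-0.60), and H2-Eb1 had 40.6, 34.7, 38.2 and 39.6 against 23.6, 25.1 and 31.4 CPM (-0.52). Cd74, the invariant chain that guides class II molecules, had 116, 97.9, 103 and 107 CPM in controls and 59.9, 60.3 and 74.6 CPM after PSD, a log2 fold change of -0.71. In each of the 4, PSD mouse 3 was the nearest to the controls.

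In restrained males the same 4 genes had log2 fold changes of -0.75 (H2-Ab1, SE 0.15), -0.67 (H2-Aa, SE 0.18), -0.64 (H2-Eb1, SE 0.16) and -0.63 (Cd74, SE 0.20). These were the 4 listed members lower at an unadjusted p under 0.05 there, where 5.39% of all genes were. In females their fold changes were negative as well, from -0.42 (H2-Ab1, SE 0.23) to -0.31 (Cd74, SE 0.25), and 0 of the 11 members passed that threshold. Ciita, the coactivator that class II transcription depends on, was measured at 2.17 to 2.49 CPM in controls and 2.23 to 2.74 CPM in PSD mice (log2 fold change 0.069). Of the 11 members, 4 were lower at an unadjusted p under 0.05 without control 1 and 4 without PSD mouse 3.

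The macrophage markers gave a weaker pattern. Of 19 tested, 0 were higher and 3 lower at an unadjusted p under 0.05, and the summed level was 228 to 256 CPM in controls and 213 to 217 CPM in PSD mice. The lower ones were Ctss and Laptm5, both called by DESeq2, and Ptprc. Ctss, the protease cathepsin S that trims the invariant chain, had 40.5, 32.0, 30.9 and 37.8 CPM in controls and 21.6 to 25.1 CPM after PSD, a log2 fold change of -0.56 (SE 0.10, adjusted p = 0.0917), with -0.36 in restrained males (SE 0.12) and 0.075 in females (SE 0.11). Laptm5, a lysosomal protein of blood cells, had 9.81, 10.2, 10.3 and 10.5 CPM in controls and 7.39, 7.55 and 6.80 CPM in PSD mice. Its log2 fold change was -0.50 (SE 0.11) here and 0.10 in restrained males (SE 0.13). The defining markers Csf1r, C1qa and Cx3cr1 overlapped between the groups, with log2 fold changes of -0.14, -0.056 and -0.091. In females all 19 fold changes were positive, and 6 of them passed an unadjusted p under 0.05. Of 7 lymphocyte markers 0 passed that threshold in these males, and they summed to 10.7 to 15.4 CPM in controls and 14.2 to 14.9 CPM in PSD mice. The part of macrophage or lymphocyte number in the class II values was not tested.

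Class I genes and interferon-stimulated genes gave other counts. Of 14 class I genes, 4 were higher and 1, B2m, lower at an unadjusted p under 0.05. The count of higher ones was 0 without control 2, PSD mouse 1 or PSD mouse 3 and 2 when another mouse was left out, and B2m was lost without PSD mouse 3. The higher ones were the nonclassical class I genes H2-T22 (0.28, SE 0.12) and H2-T23 (0.19, SE 0.080), the peptide transporter gene Tap2 (0.15, SE 0.067) and the immunoproteasome subunit gene Psmb9 (0.30, SE 0.13). B2m, the light chain of class I, had 419, 281, 308 and 339 CPM in controls and 265, 273 and 249.6 CPM after PSD. Of 30 interferon-stimulated genes, 4 were higher and 0 lower. The count of higher ones was 8 without control 1, 7 without PSD mouse 3 and 2 without control 2, PSD mouse 1 or PSD mouse 2. Irf7, the transcription factor that amplifies the interferon response, had 7.23, 5.53, 6.34 and 6.87 CPM in controls and 9.58, 10.8 and 9.64 CPM in PSD mice, and DESeq2 called it. Its log2 fold change was 0.62 (SE 0.14) in these males, 0.094 in restrained males (SE 0.17) and 0.059 in females (SE 0.24).

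Most endothelial genes had negative fold changes. Of 20 tested, 17 had negative fold changes, 0 were higher and 11 lower at an unadjusted p under 0.05, against 4.34% of all genes, and the median log2 fold change was -0.21. Without PSD mouse 3 the count of lower members was 5, without PSD mouse 2 it was 6 and without control 1 it was 9. The list summed to 310.5 to 380.1 CPM in the controls and 282 to 315 CPM in the PSD mice. Aplnr (chromosome 2, 85136225 to 85139923), the apelin receptor of growing vessels, had 10.9, 10.8, 14.5 and 14.6 CPM in controls and 7.65, 6.54 and 6.17 CPM in PSD mice, a log2 fold change of -0.90 (SE 0.14, adjusted p = 0.0736), and DESeq2 called it. It was -0.85 in restrained males (SE 0.17) and -0.88 in females (SE 0.25), with a difference of males from females of -0.030 (adjusted p = 0.988). Sox18, a factor of vessel and lymphatic development, had 3.59, 3.62, 4.55 and 4.25 CPM in controls and 2.77, 2.49 and 1.94 CPM after PSD (-0.74). For Sox18 restrained males gave -0.28 (SE 0.24) and females 0.00031. Flt4, Pecam1 and Cdh5, a growth factor receptor and adhesion molecules of endothelium, had log2 fold changes of -0.41, -0.33 and -0.38, and PSD mouse 3 was the lowest mouse for each of them. Their log2 fold changes were -0.017, -0.31 and -0.14 in restrained males and -0.035, -0.12 and -0.011 in females. The 3 members with positive fold changes were Kdr (0.098), Flt1 (0.16) and Nos3 (0.14). Over the list, 2 of 20 fold changes were positive in restrained males and 10 in females.

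The 6 tested red blood cell genes summed to 1811 to 3291 CPM in controls, highest in control 1, and to 480 to 1787 CPM in PSD mice, and 0 of the 6 passed an unadjusted p under 0.05. The PSD mice lay below all controls for 2 of the 6, and the median log2 fold change was -0.74, or from -1.09 to -0.13 over the other settings. The part of residual blood in the endothelial and class II values was not tested. Among smooth muscle genes, Tagln had 9.05, 9.15, 6.70 and 9.82 CPM in controls and 13.3, 12.2 and 14.1 CPM after PSD (log2 fold change 0.60), and DESeq2 called it. Its fold change was 0.78 in restrained males (SE 0.18) and 0.46 in females (SE 0.17). Acta2 and Myl9, an actin and a myosin light chain of smooth muscle, were higher by 0.59 (SE 0.21) and 0.20 (SE 0.065). Loxl1 (chromosome 9, 58287738 to 58313186), which crosslinks elastin, had 47.2, 48.3, 54.2 and 57.3 CPM in controls and 37.5, 37.0 and 38.8 CPM in PSD mice, a log2 fold change of -0.45 (SE 0.071, adjusted p = 0.0736). For Loxl1 the fold change was -0.20 in restrained males (SE 0.085) and 0.32 in females (SE 0.14), and the test of the sex difference gave adjusted p = 0.302. Of the 19 mural and fibroblast genes, 3 were higher and 1 lower at an unadjusted p under 0.05.

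**Figure D3:**
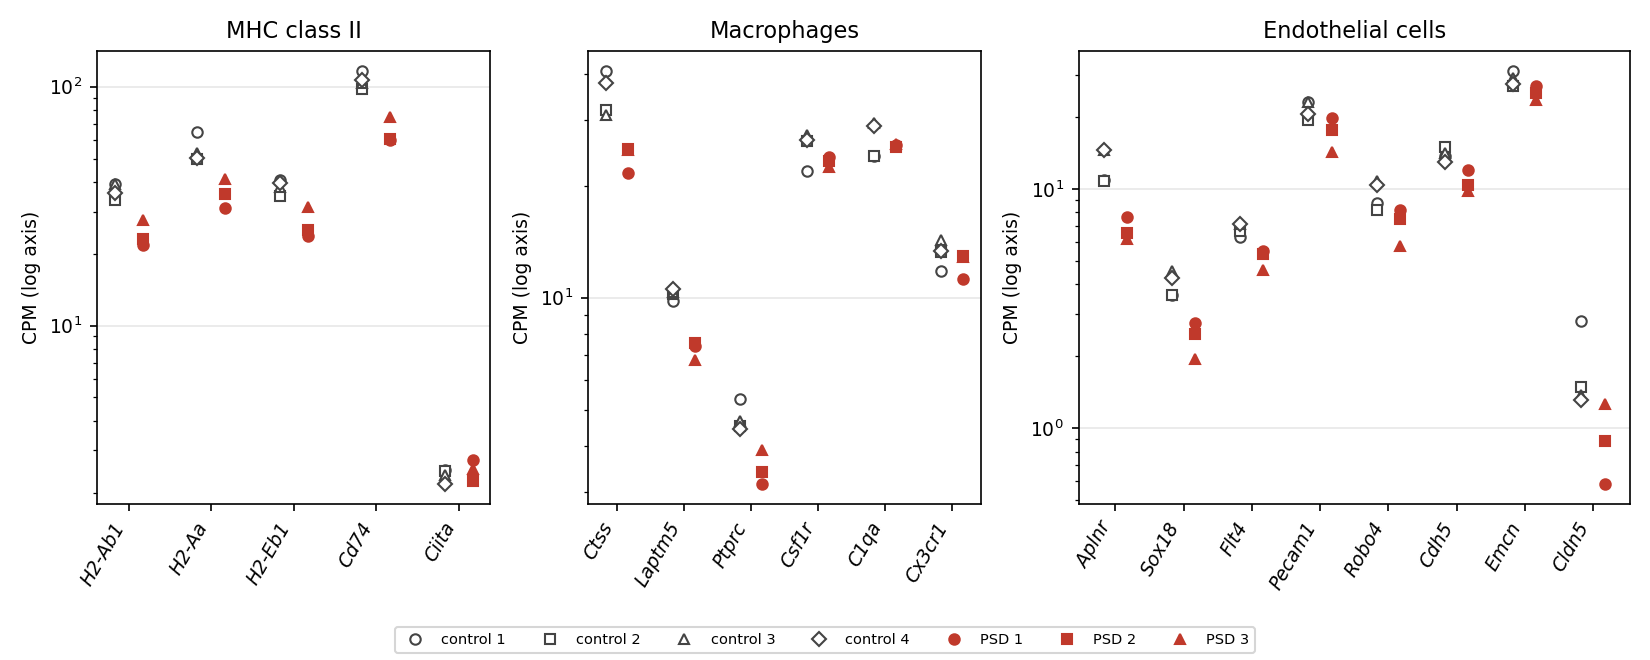
CPM per mouse (log axes) of MHC class II genes, macrophage markers and the 8 endothelial genes with the smallest p, with open symbols for controls and filled symbols for PSD mice. The class II genes H2-Ab1, H2-Aa, H2-Eb1 and Cd74 separate the groups, while Ciita, Csf1r, C1qa and Cx3cr1 overlap.

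The stress axis was covered by 18 tested receptors, processing enzymes and regulators, of which 4 were higher and 1 lower at an unadjusted p under 0.05. Pcsk1n (chromosome X, 7919822 to 7924410) encodes proSAAS, an inhibitor of the prohormone convertase PC1/3. It had 586, 539.7, 627 and 765 CPM in controls and 299, 284 and 398 CPM in PSD mice, with the groups apart, a log2 fold change of -0.94 (SE 0.18, adjusted p = 0.135), and DESeq2 called it. Restrained males gave -0.39 (SE 0.21) and females 0.059 (SE 0.22). Pcsk1, the convertase that cuts ACTH from its precursor, had 246, 193, 192 and 204 CPM in controls and 263, 249 and 259 CPM after PSD. Its log2 fold change of 0.30 (SE 0.080) compares with 0.33 in restrained males (SE 0.10) and 0.44 in females (SE 0.13), and without control 1 edgeR called it. The members higher at an unadjusted p under 0.05 were Pcsk1, Avpr1b, Crhr1 and Nr4a1, and without control 1 there were 7.

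Avpr1b, the vasopressin receptor of corticotropes, was measured at 3.46, 2.68, 1.86 and 3.49 CPM in controls and 4.36, 4.31 and 4.94 CPM in PSD mice (0.64, SE 0.21). Its log2 fold change was 0.045 in restrained males and -0.19 in females. The CRF receptor gene Crhr1 was measured at 15.99 to 21.4 against 20.3 to 23.3 CPM (0.24, SE 0.11), with 0.23 in restrained males and 0.21 in females. Pomc had 11654, 59858, 50894 and 64662 CPM in controls and 67769.5, 82587 and 104076 CPM in PSD mice, and control 1 was far below the next lowest mouse. The log2 fold change of Pomc was 0.86 (SE 0.43), and 0.54 without control 1. Of 20 genes known to respond to glucocorticoids, 3 were higher and 1 lower, and leaving out a mouse gave 2 to 5 higher and 1 to 4 lower. Fkbp5 and Tsc22d3, reliable targets of the glucocorticoid receptor, had log2 fold changes of -0.073 (SE 0.074) and 0.12 (SE 0.079). Angptl4, a lipase inhibitor induced by glucocorticoids and fasting, had 2.25 to 3.42 CPM in controls and 1.41 to 1.66 CPM after PSD, and was lower in restrained males as well (-0.76, SE 0.25).

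Hormone genes of the anterior lobe gave 0 higher and 1 lower of 21 at an unadjusted p under 0.05, the lower one being the estrogen receptor gene Esr1 (-0.20, SE 0.081). Without control 1, the highest control for Esr1, 2 were higher and 0 lower, and the lower one was also lost without PSD mouse 1 or 2. Gh was counted at 147654 to 227824 CPM in controls and 133609 to 187481 CPM in PSD mice, and Prl at 35624 to 42683 against 38981 to 42333 CPM. Log2 fold changes were -0.33 for Gh and 0.065 for Prl, 0.33 for Tshb, -0.030 for Lhb and 0.074 for Fshb, none with an unadjusted p under 0.05. The mean log2 CPM of the neurointermediate lobe genes was 3.94 ± 1.36 (SD, n = 4) in controls and 4.64 ± 0.112 (SD, n = 3) in PSD mice. The two-sided exact permutation test gave p = 0.714 for this difference, and 1 without control 1, where the control mean was 4.62. With all mice it had 35 splits, and the smallest p possible by that number alone was 0.0286. However, control 1 scored 1.92 and the other mice 4.39 to 4.73. Every split that moved control 1 to the group of 3 gave a larger difference than the observed one. A small p was therefore out of reach, and the test cannot decide the question with all mice. Without control 1 it had 20 splits and could not give a p under 0.05, so it cannot decide the question there. Of these 14 genes 2, Megf11 and Rbfox3, were higher at an unadjusted p under 0.05 and 0 lower, and their median log2 fold change was 0.33, or -0.026 without control 1. Without PSD mouse 3 the count of higher ones was 0. Megf11 had 20.5, 79.0, 73.9 and 87.3 CPM in controls and 109, 149 and 189 CPM in PSD mice.

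Peptides and growth factors gave 6 higher and 1 lower of 27 at an unadjusted p under 0.05, with a median of 0.13, or 0.27 without control 1. Nmb, which encodes neuromedin B, a local regulator of thyrotropes, had 7.69, 7.30, 6.81 and 9.92 CPM in controls and 11.1, 17.6 and 18.4 CPM after PSD, a log2 fold change of 0.99 (SE 0.25). In restrained males it was 1.52 (SE 0.32) and in females 1.84 (SE 0.29). Bdnf, a neurotrophin, had 10.1, 12.9, 10.3 and 9.75 CPM in controls and 20.3, 15.1 and 17.6 CPM in PSD mice (0.71), with 0.90 in restrained males (SE 0.21) and 0.51 in females (SE 0.24). Angptl6 had 8.89 to 12.3 CPM in controls and 14.7 to 15.99 CPM after PSD (0.57). Fstl3, which binds activin, was the lower member, at 7.62, 6.01, 7.504 and 6.48 CPM in controls and 3.91, 4.97 and 4.36 CPM in PSD mice (-0.64). DESeq2 called these 4 genes. Chga and Vgf, proteins of secretory granules, overlapped between the groups and were higher by 0.51 (SE 0.16) and 0.90 (SE 0.25), and by 1.03 (SE 0.20) and 1.28 (SE 0.27) in females. Control 1 was the lowest mouse for both.

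Acute phase and inflammation genes gave 6 higher and 1 lower of 19 tested, and 3 higher without PSD mouse 3, where the median was 0.0080 in place of 0.35. Serpina3n (chromosome 12, 104406729 to 104414329), a secreted protease inhibitor of the acute phase, was measured at 3.70, 1.91, 1.06 and 0.806 CPM in controls and 6.03, 9.75 and 7.72 CPM in PSD mice. Its log2 fold change was 2.04 (SE 0.39, adjusted p = 0.135), with 2.02 in restrained males (SE 0.52) and 3.48 in females (SE 0.64). The female PSD mice had 27.8, 4.22, 2.99 and 2.43 CPM, so that 1 of them was far above the rest, and the female controls 0.944, 0.952, 0.995 and 0.427 CPM. Since close relatives of Serpina3n can share reads, its counts are less certain. Lcn2, which binds bacterial siderophores, had 49.6, 54.8, 51.9 and 59.9 CPM in controls and 72.1, 82.5 and 80.3 CPM after PSD (0.54), and the fold change was 0.76 in restrained males (SE 0.17) and 1.36 in females (SE 0.18). Clu, the secreted chaperone clusterin, had 417 to 659 CPM in controls and 711 to 943 CPM in PSD mice. Tnfaip3, a brake on NF-kB, was high in a single animal, with 5.05, 3.23 and 22.97 CPM in the PSD mice. DESeq2 called Serpina3n and Lcn2.

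Serpinb11 (chromosome 1, 107361198 to 107380475), another gene of the serpin family, had one of the widest folds. Controls had 0.996, 4.10, 2.77 and 3.71 CPM and PSD mice 10.03, 19.3 and 14.1 CPM, a log2 fold change of 2.34 (SE 0.41, adjusted p = 0.0917). It was 2.36 in restrained males (SE 0.52) and 2.14 in females (SE 0.43). Nrip2, a nuclear receptor interacting protein, had 3.81, 4.73, 3.79 and 4.94 CPM in controls and 7.10, 7.64 and 8.11 CPM in PSD mice (0.82, adjusted p = 0.0736), with 0.85 in restrained males (SE 0.16) and 0.45 in females (SE 0.18). Cyb5r1, a cytochrome b5 reductase, had 25.7, 30.2, 29.7 and 33.9 CPM in controls and 38.7, 46.1 and 44.4 CPM after PSD (0.53, SE 0.092). Eno2, the neuronal enolase of glycolysis, had 103, 98.4, 106 and 104 CPM in controls and 118, 132 and 129 CPM in PSD mice (0.30, SE 0.056), with 0.13 in restrained males (SE 0.067) and 0.35 in females (SE 0.080). Krt8, a keratin of epithelial and stem cells of the gland, had 46.6 to 60.9 CPM in controls and 63.5 to 72.9 CPM in PSD mice (0.38), with 0.40 in restrained males (SE 0.11) and 0.31 in females (SE 0.094). Pcdha12 had 5.10 to 6.21 CPM in controls and 8.70 to 9.53 CPM after PSD, but this protocadherin shares exons with its neighbours. Mir1906-1, at 39.0 to 44.8 against 53.8 to 55.3 CPM, lies within the long noncoding RNA Meg3 (chromosome 12, 109541001 to 109571726), whose reads cannot be told from its own in mRNA libraries.

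Of the genes with the smallest p among those lower in every PSD mouse, Basp1 and Begain encode proteins known from nerve endings and synapses. Basp1 had 38.7, 36.1, 40.4 and 45.8 CPM in controls and 26.0, 27.97 and 26.6 CPM in PSD mice (-0.58, adjusted p = 0.135). Restrained males gave -0.40 (SE 0.13), whereas females gave 0.45 (SE 0.13), and the sex difference had an adjusted p of 0.112. Begain had 33.0, 28.5, 32.5 and 33.1 CPM in controls and 22.8, 22.3 and 24.6 CPM after PSD (-0.45), with -0.15 in restrained males (SE 0.086) and 0.14 in females (SE 0.11). A further 4 of these 12 bear only cDNA accession names.

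Genes of the ribosome and of the respiratory chain differed by small amounts. Of 76 cytosolic ribosomal protein genes, 4 were higher and 13 lower at an unadjusted p under 0.05, and their median log2 fold change was -0.0141. Leaving out a mouse gave 1 (without control 1 or PSD mouse 3) to 8 (without control 4) higher and 7 (without PSD mouse 1 or 2) to 14 lower. Rps26 had 95.7, 86.8, 104 and 101 CPM in controls and 73.1, 73.0 and 78.5 CPM in PSD mice (-0.37), and Rpl27 48.0, 41.8, 46.7 and 46.5 against 33.5, 33.3 and 36.9 CPM (-0.40), and pseudogene copies make such counts uncertain. Of the 76 fold changes 33 were positive here, 58 in restrained males and 4 in females. Of 81 genes of oxidative phosphorylation, 17 were higher and 1 lower, with a median of 0.0629. The count of higher ones was 10 without PSD mouse 3, 11 without control 1 and 26 without control 4. Atp5e, a small subunit of ATP synthase, had 78.5, 94.7, 86.2 and 111 CPM in controls and 123, 122 and 134 CPM in PSD mice (0.45), 0.58 in restrained males (SE 0.11) and 0.17 in females (SE 0.13). Ndufv1, a core subunit of complex I, had 83.5 to 93.0 CPM in controls and 99.2 to 105 CPM after PSD. Among 15 cytosolic heat shock chaperones 0 were higher and 3 lower, or 1 lower without control 4 or PSD mouse 3. Hspa8, the constitutive Hsp70, had 701 to 845 CPM in controls and 553 to 662 CPM in PSD mice (-0.31), with -0.31 in restrained males (SE 0.12) and -0.42 in females (SE 0.14).

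Of 24 proliferation genes, 23 had positive fold changes, with a median of 0.31, and 5 were higher and 0 lower at an unadjusted p under 0.05. Without PSD mouse 3 there were 3 higher with a median of 0.16, and without PSD mouse 1 there were 11 with a median of 0.51. Bub1b, a mitotic checkpoint kinase, had 4.81, 3.76, 4.41 and 2.81 CPM in controls and 6.09, 5.82 and 7.96 CPM in PSD mice (0.75), and DESeq2 called it. In restrained males 20 of the 24 fold changes were positive and in females 22. Of 23 clock genes, 5 were higher and 0 lower, but the count of higher ones was 0 without PSD mouse 3, 3 without control 4 and 8 without PSD mouse 1. Per1, which is also an immediate early gene, had 112 CPM in control 1, at most 60.7 CPM in the other controls and 129, 71.0 and 224 CPM in PSD mice. Per2, another period gene, was higher by 0.28 (SE 0.10), and by 0.51 (SE 0.12) in restrained males. Stem and folliculostellate cell genes gave 1 higher and 1 lower of 18, the lower one being Sox2, at 24.7 to 33.5 CPM in controls and 22.3 to 22.9 CPM in PSD mice, and no longer below that threshold without control 2, control 4 or any 1 of the PSD mice. Skeletal muscle genes gave 0 of 10 in either direction. Of 13 forebrain genes, 0 were higher and 2, Omp and Aqp4, lower, and without control 1, the highest mouse for both, 0 were lower and 2 higher. Without PSD mouse 1, 0 were lower and 1 higher.

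**Figure D4:**
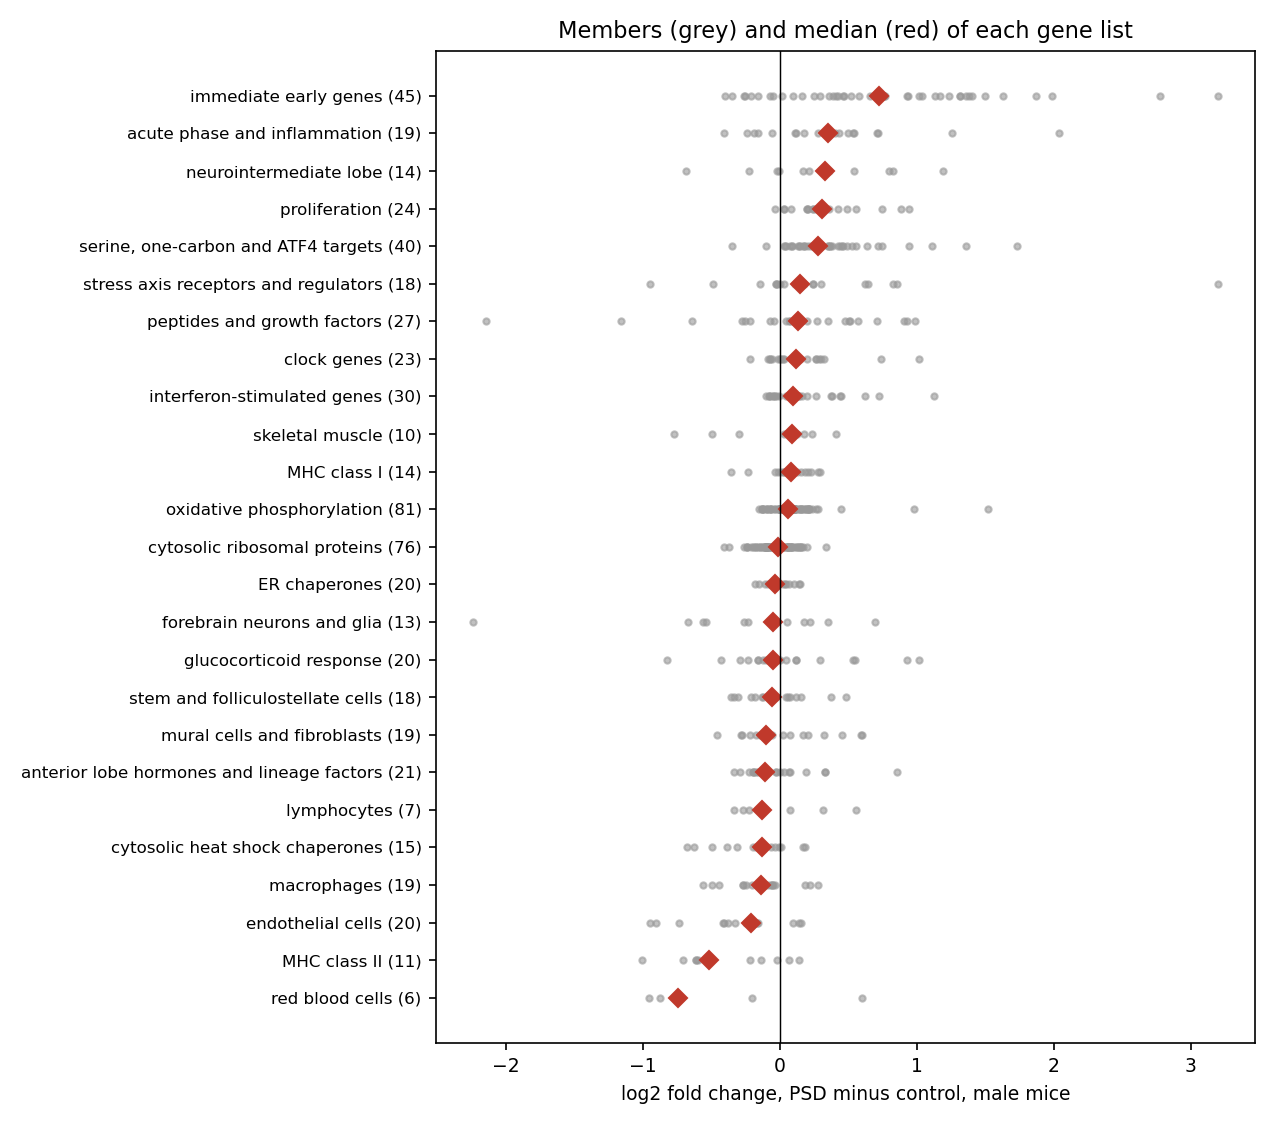
Log2 fold changes (PSD minus control, male mice) of the members of 25 gene lists, grey, and their medians, red, with the number of genes tested in brackets. Medians run from -0.74 for 6 red blood cell genes and -0.52 for MHC class II to 0.73 for immediate early genes, against -0.00106 over all genes tested.

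The 24 genes with the smallest p among those whose groups did not overlap, 12 higher and 12 lower, were followed into the other mice. In restrained males all 24 kept their direction, and for 18 the p before adjustment was below 0.05. Of all genes there, 5.14% were higher and 5.39% lower at that threshold. Both male comparisons took the spread of a gene from the shared fit of 12 males. The p-values of these 18 are therefore not independent of the choice of the 24 by small p. In females 11 of the 12 higher genes and 3 of the 12 lower genes had the same direction, and 10 of the 24 passed that threshold with it. The lower genes that did so in females were Aplnr, Rps26 and Rpl27. Of all genes in females, 11.5% were higher and 10.1% lower at it, and the fit for the female values included these males. For the sex difference, 10.8% of all genes had an unadjusted p under 0.05, and after adjustment over 18936 genes 0 were called (0%, lowest adjusted p 0.0692). DESeq2, here with fold changes that were not shrunken, called 16 genes in that test, among them Nr4a1, Fam46a and Basp1. Over all genes, 0 passed an adjusted p of 0.05 by edgeR for a difference between the responses of restrained and unrestrained males, with 702 of 18271 at an unadjusted p under 0.05.

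**Figure D5:**
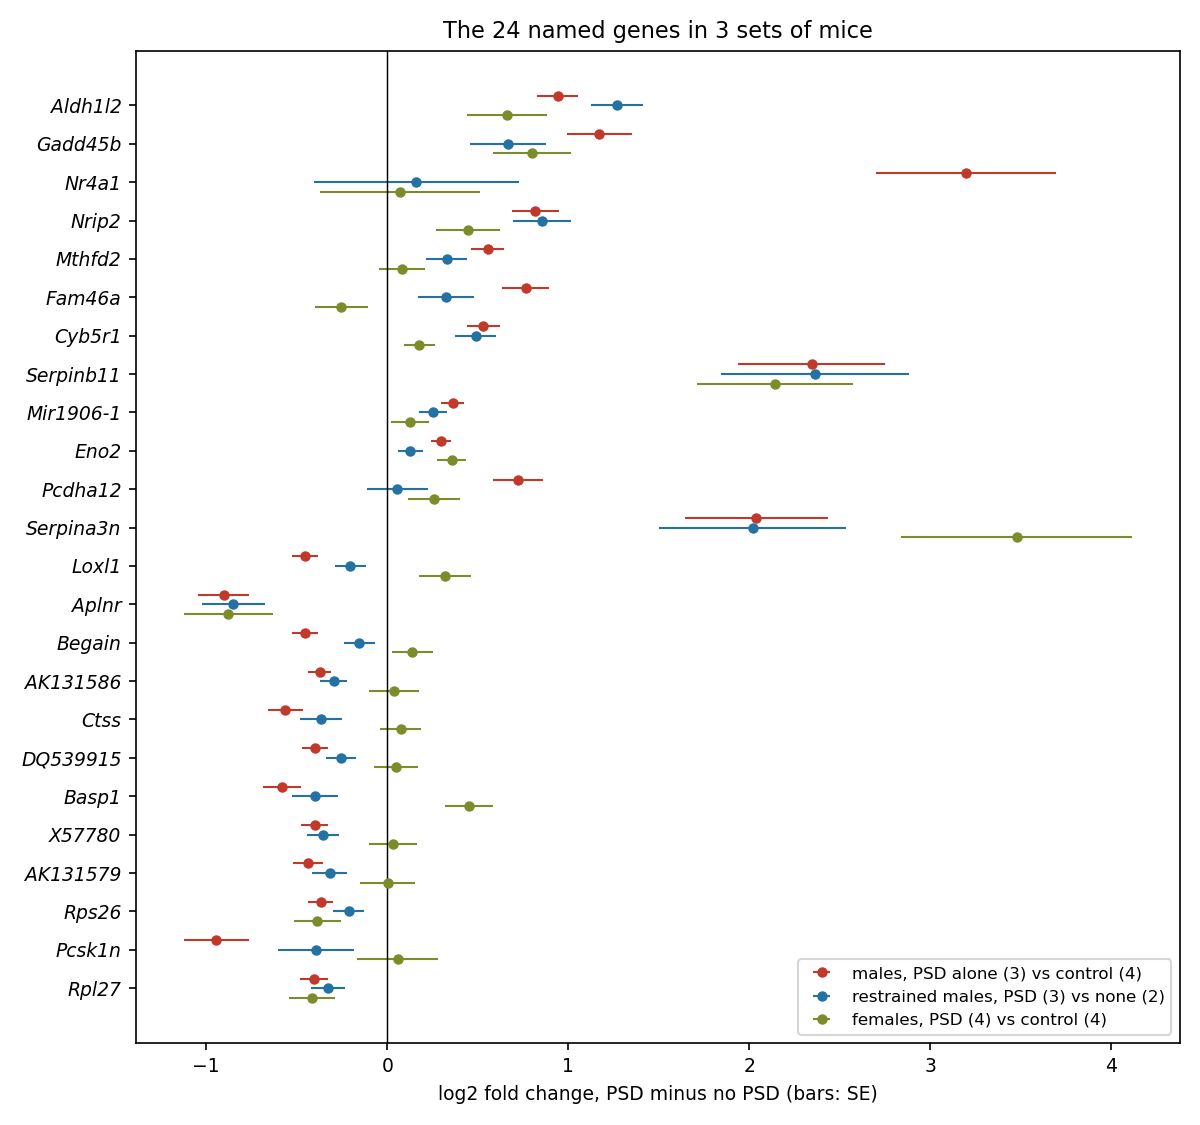
Log2 fold changes with PSD (points, bars are standard errors) of 24 genes in unrestrained males, restrained males and females. The blue and red points share their sign for all 24 genes, while 9 of the 12 lower genes have female points above 0.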

How the data were processed

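Pituitary RNA of 28 mice was sequenced as stranded, paired-end mRNA libraries. According to the study's methods, reads were aligned to mm10 with MapSplice and counted per gene on UCSC gene models with HTSeq 0.9.1, and the authors deposited the raw counts. The strand setting of the counting is not given in the sources used here. The labels give no batch.

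From these counts, TMM factors and the quasi-likelihood test of edgeR 4.0.16 (R 4.3.3) were used on the genes that filterByExpr kept. The 12 males were fitted together with PSD, restraint and their interaction, and the PSD coefficient gave the comparison of the 7 mice. Males and females entered a fit of all 28 mice for the female values and the sex difference. A gene was called where its p, adjusted by Benjamini-Hochberg over all genes tested, did not exceed 0.05 and the groups differed by 0.32 or more on the log2 scale, the study's thresholds. The study's filter on TPM was not applied. DESeq2 1.42.0 was the alternative tool, with shrunken fold changes and 1 mean per treatment, since that shrinkage takes no interaction (the authors used DESeq2 1.16.1). For the sex difference its fold changes were not shrunken. Fold changes in the text are edgeR's, on the log2 scale with their SE. The p-values measure the spread between these mice alone.

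Genes were named if called, if among the 12 higher or 12 lower genes with the smallest p whose groups did not overlap at a mean of at least 1 CPM, or as members of 25 gene lists, where those with an unadjusted p under 0.05 came first. Genes called by DESeq2 were named where they met these rules. The comparison, the named genes and the lists were chosen with earlier results of these data known, so their counts are descriptions. Gene coordinates are GENCODE's on GRCm38, found for 19 of the 24 genes with the smallest p.

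The fits were tested on simulated counts with known changes, in which 200 of 18143 genes differed by 1 on the log2 scale. There edgeR recovered 182 of the changed genes and made 10 false calls. DESeq2, here with fold changes that were not shrunken, recovered 184 and made 29 false calls. Its 76 calls in the data used shrunken fold changes, and the simulated counts were drawn with edgeR's estimates of the spread. The 29 therefore do not measure the error of those calls. Genes called by DESeq2 alone were not called by edgeR and remain less certain. No mice of a group agreed within sampling noise (chi-square per degree of freedom at least 15.3), so none was counted as a duplicate. Replicate numbers are shared between groups, but same-numbered mice did not deviate together from their group means (correlations -0.154, -0.0294 and 0.0346 over 15459 genes), so no pairing was used. Alternatives were the tool, the size factors, the filter, the mice fitted, a replicate block, a score of neurointermediate lobe genes as a covariate, and leaving out each mouse. Counts of list members at an unadjusted p under 0.05 under each alternative were added after seeing the data.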

Additional observations from a re-analysis of the deposited data

Results flagged for a closer look

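Among the 4 controls, 1 mouse stood apart from the other 3 (by Dixon's criterion at 95%) for 13 of the 146 genes and list sums tested. Chance alone flags about 1 in 20 such groups. Control 1 was the mouse in 9 of the 13. It was the lowest for Gadd45b, at 7.23 CPM against 12.2 to 13.3 CPM in the other controls. It was the highest for Sik1, with 23.5 CPM against 9.46 to 10.5 CPM, for Nr4a2, with 31.6 CPM against 12.7 to 14.1 CPM, and for Fosl2, with 76.4 CPM against 21.2 to 25.3 CPM. The forebrain genes Omp (10.4 CPM against 0.656 to 1.22 CPM) and Aqp4 (23.97 CPM against 10.5 to 12.0 CPM) were highest in it too, as was the sum of the 13 forebrain genes, at 276 CPM against 123 to 141 CPM. It also had the highest counts of AK131586, at 5954 CPM against 5076 to 5183 CPM, and of DQ539915, at 14733 CPM against 11927 to 12363 CPM, 2 entries with cDNA names.

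Control 2 stood apart for Begain, where it was lowest with 28.5 CPM against 32.5 to 33.1 CPM, and for Fos, where it was highest with 27.7 CPM against 10.7 to 12.1 CPM. It also had the lowest sum of the peptide and growth factor genes, 8681 CPM against 10222 to 10505 CPM. Control 4 had the highest sum of the oxidative phosphorylation genes, 6508 CPM against 6086 to 6110 CPM. The groups of 3 PSD mice are too small for this criterion.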

How the results depend on the processing

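The count of genes called between PSD and control males, 1, depended on the processing. It was 76 with DESeq2, 11 without a filter on low counts, 9 with the neurointermediate lobe score as a covariate, 2 (Aldh1l2 and Cyb5r1) with a replicate block, and 0 in a fit of the 7 mice alone, where 1677 of 17949 genes had an unadjusted p under 0.05. It stayed at 1 with DESeq2's size factors in edgeR, a minimum of 10 counts, edgeR's robust option or no fold threshold. Leaving out 1 mouse gave 0 to 7 calls. Without control 1 there were 7 (Serpina3n, Gadd45b, Aldh1l2, Nr4a1, Loxl1, Aplnr and Pcsk1), without control 4 there were 3 and without PSD mouse 2 there was 1 (Nr4a1). Without control 2, control 3, PSD mouse 1 or PSD mouse 3 there were 0, with 1576, 1309, 1438 and 1061 genes at an unadjusted p under 0.05. The cause was not tested. Under the block, same-numbered mice were treated as pairs although each PSD mouse correlated best with a control of another number.

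In restrained males the count of 1 was 111 with DESeq2, 3 with the covariate and 0 in a fit of those 5 mice alone, where 1582 genes had an unadjusted p under 0.05 against 1925 in the shared fit. The count for the sex difference was 0 by edgeR, with 2039 genes at an unadjusted p under 0.05. It was 16 with DESeq2 (fold changes not shrunken), 4 without male control 1 and 0 in a fit of the 4 unrestrained groups, with 1975 genes at an unadjusted p under 0.05.

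For the fold changes of the genes named, 1811 alternative values were computed, and 1728 kept their direction and their side of the threshold, 72 newly passed it, 6 lost it and 5 reversed. The 6 were all of Aldh1l2. The reversed ones were small or rested on 1 mouse. Leaving out 1 mouse moved Ciita between -0.000141 and 0.15, Lhb between -0.092 and 0.021, Fshb between -0.00669 and 0.18, and Tnfaip3 between -0.082 (without PSD mouse 3) and 1.70. Of 400 list medians, 378 moved by less than the SD of the list's mean log2 CPM over the 4 controls, and 22 moved further. That SD is not a spread of the median fold change, so the 378 do not show that the medians are stable. For the neurointermediate lobe genes it was 1.36, and their move from 0.33 to -0.026 without control 1 is among the 378. With DESeq2's shrunken fold changes the median of immediate early genes was 0.19 in place of 0.73 and that of MHC class II -0.15 in place of -0.52.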
